A study of Homo sapiens with 15 samples.

Results

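Müller glial cells (MGCs), the main glia of the retina, keep the fluid around the neurons constant. The 10 genes described here carry that work: GLUL, SLC1A3 and SLC1A2 for glutamate, KCNJ10 and AQP4 for potassium and water, CA2 and CA14 for acid and base, RLBP1 for retinoids, and APOE and CLU for lipids and secreted proteins. They were chosen by name as MGC homeostasis genes, with earlier results of these data known, and matched by symbol. All 10 were found among the 19684 genes of the deposited tables. In the neural retina of retinal organoids, 5 of the 9 tested were called higher (at least 2-fold, adjusted p under 0.05) at day 150 than at day 70, where 16.6% of all genes tested were. In the first passage of the glial cultures taken from those organoids, 8 of the 9 tested were called lower than in the organoids, where 24.1% of all genes were called lower and 44.1% in all. Of those 9, 6 could be tested only because they reached the required level in the organoids. AQP4, CA2 and RLBP1 had no count at all at that passage. By passage 5 SLC1A3 had risen again to a small part of its organoid level, while CLU had fallen further.

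The libraries formed 5 groups of 3. All came from BC1-GFP, an established human induced pluripotent stem cell (hiPSC) line of wild-type genotype that carries a GFP reporter. The groups were undifferentiated hiPSCs, the neural retina (NR) layers of retinal organoids (ROs) at 70 and 150 days after induction (D70-ROs and D150-ROs), and cultures enriched for induced MGCs (iMGCs) on the 5th day of passage 1 (P1) and of passage 5 (P5). The iMGCs grew out of dissociated NR layers of D150-ROs on Matrigel in DMEM with 10% serum, so that the step from D150-ROs to P1 joins dissociation, plating, growth and a new medium, which cannot be told apart. Each RO library pooled 5 organoids. The descriptions of the samples give 3 independent experiments per group, but the description of the series gives 2 for hiPSCs and ROs. Sequencing was shared by 2 companies and the authors corrected for batches, but the libraries concerned are not named, and batch and group therefore cannot be told apart. Poly(A) RNA was sequenced to between 11349600 and 20398755 expected counts per library (median 17194154), with D70-RO replicate 2 the lowest.

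In the living retina MGCs take up the glutamate that neurons release through the transporters GLAST (SLC1A3) and GLT-1 (SLC1A2), and glutamine synthetase (GLUL) turns it into glutamine. The channel Kir4.1 (KCNJ10) carries away potassium, and the water channel aquaporin-4 (AQP4) sits beside it in the glial endfeet. Carbonic anhydrases hydrate carbon dioxide, inside the cell (CA2) and at its surface (CA14). CRALBP (RLBP1) binds 11-cis retinoids, and apolipoprotein E (APOE) and clusterin (CLU) are secreted carriers of lipid. GLUL, SLC1A3, APOE and CLU are made by many other cell types as well. That list is not complete, since CA14 had 35.9 FPKM in undifferentiated hiPSCs here.

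Positions are from GENCODE 29 on GRCh38, a release that holds all 19684 gene identifiers of the tables; the build used by the authors is not given in the sources used here. All 10 are annotated as protein-coding. GLUL (ENSG00000135821) lies at chr1:182381704-182392206 on the minus strand, SLC1A3 (ENSG00000079215) at chr5:36606355-36688334 on the plus strand, and SLC1A2 (ENSG00000110436) at chr11:35251205-35420063 on the minus strand. KCNJ10 (ENSG00000177807) spans chr1:159998651-160070483 and RLBP1 (ENSG00000140522) spans chr15:89209869-89221751, both on the minus strand. CA14 (ENSG00000118298) was placed at chr1:150257159-150265078 and APOE (ENSG00000130203) at chr19:44905754-44909393, both on the plus strand. AQP4 (ENSG00000171885) spans chr18:26852038-26865818 on the minus strand, and CA2 and CLU were matched as ENSG00000104267 and ENSG00000120885. Antisense genes overlap SLC1A3, SLC1A2, KCNJ10, AQP4, CA2 and CA14, and the protein-coding gene PIGM overlaps KCNJ10. Strandedness of the libraries is not stated, so reads of these genes and of their partners cannot be told apart. GLUL also has processed pseudogenes elsewhere in the genome, and how reads shared with them were divided is not stated.

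Promoter windows are shown for 3 genes that differed in their course. RLBP1 had the steepest rise in the organoids and then no count at P1, SLC1A3 was the member called higher again at P5, and GLUL kept a measurable level in every library. Each window is RefSeq sequence of GRCh38.p14, printed 5′ to 3′ along the strand of the gene, from 250 bases before the annotated start to 50 bases after it. Capitals mark TAATCC, the core recognised by OTX2 and CRX, and ACAAAG, a core recognised by SOX proteins, searched on both strands; the 2 motifs do not overlap.
RLBP1, chr15:89221530-89221829, minus strand: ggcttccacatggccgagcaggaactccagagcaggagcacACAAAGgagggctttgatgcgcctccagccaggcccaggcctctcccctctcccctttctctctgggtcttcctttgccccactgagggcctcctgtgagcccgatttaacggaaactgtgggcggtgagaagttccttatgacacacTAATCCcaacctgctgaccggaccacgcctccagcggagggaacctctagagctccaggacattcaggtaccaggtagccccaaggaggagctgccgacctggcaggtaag
SLC1A3, chr5:36606356-36606655, plus strand: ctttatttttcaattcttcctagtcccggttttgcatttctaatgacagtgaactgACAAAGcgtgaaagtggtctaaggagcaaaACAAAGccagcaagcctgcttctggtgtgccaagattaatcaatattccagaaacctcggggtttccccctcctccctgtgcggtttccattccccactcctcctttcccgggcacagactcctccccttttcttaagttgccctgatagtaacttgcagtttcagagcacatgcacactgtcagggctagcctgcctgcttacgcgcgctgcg
GLUL, chr1:182391741-182392040, minus strand: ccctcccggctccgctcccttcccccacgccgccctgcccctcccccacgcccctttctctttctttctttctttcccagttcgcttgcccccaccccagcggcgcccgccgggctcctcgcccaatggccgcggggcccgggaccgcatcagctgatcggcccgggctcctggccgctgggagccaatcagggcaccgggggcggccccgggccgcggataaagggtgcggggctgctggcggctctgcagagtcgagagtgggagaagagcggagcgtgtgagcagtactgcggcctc
The RLBP1 window held 1 TAATCC and 1 ACAAAG, the SLC1A3 window 2 ACAAAG and the GLUL window neither. Of 35116 RefSeq windows of this length, 6.36% held TAATCC and 16.1% held ACAAAG. Windows were found for 7 of the 10 genes, and among the other 4 KCNJ10 had 1 ACAAAG and CA14, APOE and AQP4 had neither motif; SLC1A2, CA2 and CLU were not among the matched windows. Genes with several annotated starts were read at the start nearest to the 5′ end of the GENCODE gene. OTX2 itself, given here because its motif is marked, had 419 to 468 FPKM in D150-ROs, 0.25 to 0.31 at P1 and 1.34 to 1.64 at P5. SOX9 had 38.9 to 46.5 FPKM in D150-ROs, 4.98 to 5.48 at P1 and 3.47 to 3.78 at P5. SOX2 had 65.4 to 77.0 FPKM in D150-ROs, 0.41 to 0.68 at P1 and 0.47 to 0.81 at P5. These 3 genes were named after their values were seen.

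Levels are given as FPKM, fragments scaled for transcript length and for mapped reads, which can be set beside each other between genes. Differences are log2 fold changes with their standard error (SE) from edgeR's quasi-likelihood test on counts scaled by TMM, which places the typical gene near no change. A gene was called when the Benjamini-Hochberg adjusted p over all genes tested was under 0.05 and the change at least 2-fold. A gene was tested only where it reached 1 FPKM in at least 3 of the libraries compared. The scales part company between organoids and iMGCs: on log2(FPKM + 1) the median of all genes tested lay at −0.59 at P1 against D150-ROs and at −0.65 at P5, but at −0.05 in both on the TMM scale. Percentages of the D150-RO level given in FPKM therefore read lower than the log2 fold changes. Because RNA came from whole layers or whole cultures, fewer cells of a type and less RNA per cell cannot be told apart.

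**Figure D1:**
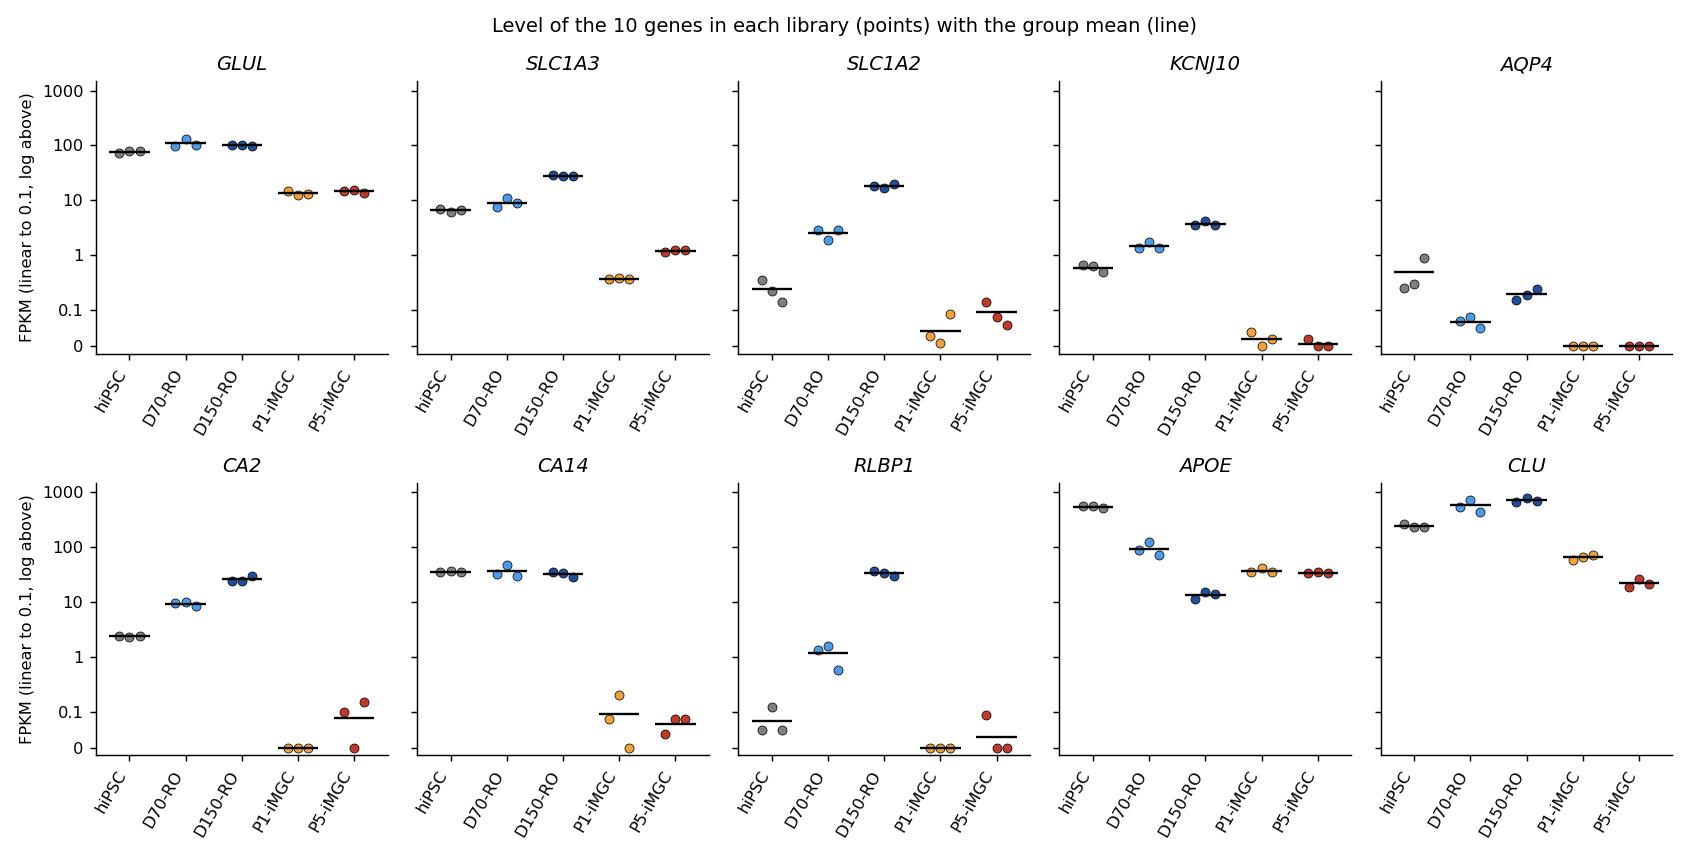
FPKM (vertical axis, linear up to 0.1 and logarithmic above) of each of the 10 genes in the 15 libraries; points are libraries, lines are means of 3 libraries, and colours are the 5 groups. SLC1A3, SLC1A2, KCNJ10, CA2 and RLBP1 climb from hiPSCs to D150-ROs and sit at or below 1.23 FPKM in all 6 iMGC libraries, whereas GLUL, APOE and CLU stay at 11.5 FPKM or more in all 15.

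Of the glutamate genes, GLUL was abundant from the start. The hiPSC libraries had 74.1, 78.6 and 78.6 FPKM, the D70-RO libraries 98.6, 131 and 100.3, and the D150-RO libraries 101, 102 and 97.6. Both RO ranges lay above the hiPSC range in FPKM, but none of the steps was called. On the count scale GLUL differed from hiPSCs by 0.37 at D70 (SE 0.14; edgeR adjusted p = 0.0312) and by −0.01 at D150 (SE 0.08; edgeR adjusted p = 0.902). The sign of the D150-RO difference depends on the scale, at 0.37 on log2(FPKM + 1) and −0.64 once a trend with gene length was removed. At P1 GLUL was 14.6, 12.25 and 13.3 FPKM and at P5 14.7, 15.2 and 13.8 FPKM, so the iMGC libraries stood far below all others and the passages overlapped. The log2 fold change from D150-ROs to P1 was −2.25 (SE 0.06; edgeR adjusted p = 3.86e-15), and on FPKM the P1 mean was 13.4% ± 1.18 (SD, n = 3) of the D150-RO mean. From P1 to P5 the difference was 0.19 (SE 0.06; edgeR adjusted p = 0.0194), under the 2-fold limit, and P5 stayed at 14.6% ± 0.719 (SD, n = 3).

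SLC1A3, the GLAST transporter, was already present in hiPSCs at 7.03, 6.09 and 6.79 FPKM. It measured 7.46, 10.8 and 8.89 FPKM in D70-ROs and 28.7, 27.55 and 27.8 FPKM in D150-ROs. The rise fell mainly between day 70 and day 150, where the log2 fold change was 1.41 (SE 0.16; edgeR adjusted p = 5.05e-05), against 0.39 between hiPSCs and D70-ROs (SE 0.18; edgeR adjusted p = 0.0721). In P1 iMGCs it fell to 0.37, 0.39 and 0.36 FPKM, a log2 fold change of −5.73 (SE 0.10; edgeR adjusted p = 7.47e-17) that left 1.33% ± 0.0545 (SD, n = 3) of the D150-RO level. The P5 libraries had 1.12, 1.22 and 1.23 FPKM, each above every P1 library and below every hiPSC library. This rise from P1 to P5 was 1.88 (SE 0.22; edgeR adjusted p = 2.14e-07), from 67 counts over 3 libraries to 237. The P5 level was 4.25% ± 0.217 (SD, n = 3) of that in D150-ROs, from which it still differed by −3.86 (SE 0.08; edgeR adjusted p = 1.4e-16). SLC1A3 reached the 1 FPKM needed for testing only through the P5 libraries, and on log2(FPKM + 1), where low levels are compressed, its rise was 0.67 and not called.

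SLC1A2, the GLT-1 transporter, was close to absent in hiPSCs, at 0.35, 0.22 and 0.14 FPKM. It reached 2.93, 1.92 and 2.82 FPKM in D70-ROs and 18.5, 17.1 and 19.55 FPKM in D150-ROs, with no overlap between these stages. Both steps were called, with log2 fold changes of 4.39 (SE 0.29; edgeR adjusted p = 1.44e-07) and 2.71 (SE 0.19; edgeR adjusted p = 3.86e-06), the later one 1.78 with the length trend removed. The ratio of SLC1A3 to SLC1A2 shrank from 32.1 ± 14.7 (SD, n = 3) before differentiation to 3.77 ± 1.63 at day 70 and 1.53 ± 0.0993 at day 150. In iMGCs SLC1A2 was nearly gone, with 0.03, 0.01 and 0.09 FPKM at P1 and 0.14, 0.08 and 0.06 FPKM at P5, and the iMGC range at P5 touched that of hiPSCs. The loss at P1 rested on 8 counts against 7993 and amounted to −9.32 (SE 0.14; edgeR adjusted p = 1.2e-17). At P5 28 counts were seen, too few for the test, and the P1 and P5 libraries overlapped. With no filter on low values, the only setting in which it was tested, SLC1A2 was called higher at P5 than at P1, with a log2 fold change of 1.81.

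For potassium, KCNJ10 was low throughout. The hiPSC libraries had 0.65, 0.62 and 0.5 FPKM of Kir4.1 transcripts, D70-RO libraries 1.33, 1.73 and 1.34, and D150-RO libraries 3.57, 4.16 and 3.58. The 3 stages did not overlap, and both steps were called, at 1.07 (SE 0.28; edgeR adjusted p = 0.00477) and 1.31 (SE 0.23; edgeR adjusted p = 0.000711). The first of these calls sat at the 2-fold limit and was lost without hiPSC replicate 3 (0.87) or, with the set of tested genes kept, without D70-RO replicate 2 (0.80). On log2(FPKM + 1) the steps were 0.63 and 0.95, and neither was called. In iMGCs KCNJ10 had 0.04, 0 and 0.02 FPKM at P1 and 0.02, 0 and 0 FPKM at P5, that is 3 counts and 1 count over 3 libraries each. Against the 829 counts of D150-ROs this is a log2 ratio of −7.52 at P1 with a 95% counting interval from −9.80 to −5.97, and of −9.05 at P5 with an interval from −14.36 to −6.57. Between the passages the ratio could not be resolved, since its interval ran from −7.24 to 2.12.

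AQP4, the water channel of glial endfeet, did not reach 1 FPKM in any library and was tested only with no filter on low values. The hiPSC libraries held 0.25, 0.3 and 0.9 FPKM, D70-RO libraries 0.07, 0.08 and 0.05, and D150-RO libraries 0.15, 0.19 and 0.24. The D150-RO libraries thus lay above the D70-RO libraries and just below those of hiPSCs. Summed over 3 libraries these are 72, 17 and 32 counts. No count was seen in the 6 iMGC libraries, which against D150-ROs means at least 7.10-fold lower at P1 and at least 6.82-fold lower at P5. With no filter AQP4 differed from hiPSCs by −1.90 at D70 (edgeR adjusted p = 0.00596) and by −1.20 at D150 (edgeR adjusted p = 0.0265). From D70 to D150 the difference was 0.68 (edgeR adjusted p = 0.299). Against D150-ROs it was called lower at P1 (edgeR adjusted p = 0.000425) and at P5 (edgeR adjusted p = 0.000406). Read against the other members, D150-ROs had KCNJ10 at 3.77 ± 0.338 FPKM (SD, n = 3) and AQP4 at 0.193 ± 0.0451 FPKM.

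CA2, the cytosolic carbonic anhydrase, rose at both organoid steps. From 2.40, 2.34 and 2.37 FPKM in hiPSCs it went to 9.57, 10.01 and 8.42 at day 70, and to 23.8, 24.5 and 29.55 at day 150, without overlap. The log2 fold changes were 1.84 (SE 0.18; edgeR adjusted p = 3.02e-06) and 1.25 (SE 0.13; edgeR adjusted p = 3.11e-05), and the later one was 1.96 with the length trend removed. All 3 P1 libraries had no count of CA2 against 2153 counts in D150-ROs, at least 478-fold lower. At P5 it was listed at 0.1, 0 and 0.15 FPKM, 7 counts in all, and differed from D150-ROs by −7.56 (SE 0.26; edgeR adjusted p = 9.15e-14). Whether it differed between the passages was not detectable at this depth.

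The membrane-bound CA14 followed another course, with no call in the organoids and then a loss. The hiPSC libraries had 35.1, 37.0 and 35.7 FPKM, D70-RO libraries 32.1, 47.0 and 30.05, and D150-RO libraries 34.9, 33.5 and 29.1. Neither step was called, at −0.16 (SE 0.15; edgeR adjusted p = 0.337) and −0.30 (SE 0.15; edgeR adjusted p = 0.0996). The first of these turned to 0.03 without D70-RO replicate 3. Over the whole span from hiPSCs to D150-ROs the libraries did not overlap and the difference was −0.47 (SE 0.10; edgeR adjusted p = 0.000797), a decrease under the 2-fold limit. P1 iMGCs had 0.08, 0.2 and 0 FPKM and P5 iMGCs 0.04, 0.08 and 0.08 FPKM, 7 counts in each group. The loss at P1 was −7.93 (SE 0.25; edgeR adjusted p = 7.65e-14), −9.05 without P1-iMGC replicate 2 and −7.29 without P1-iMGC replicate 3. At P5 it was −7.88 (SE 0.22; edgeR adjusted p = 5.62e-15). With 7 counts a group, a difference between the passages was not detectable.

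RLBP1, which encodes CRALBP, had the widest range in the organoids. The hiPSC libraries held 0.05, 0.12 and 0.05 FPKM, D70-RO libraries 1.34, 1.56 and 0.58, and D150-RO libraries 36.9, 34.0 and 29.6. The rise from D70 to D150 was 4.66 (SE 0.27; edgeR adjusted p = 1.19e-06), and 5.41 with the length trend removed. Over the whole span from hiPSCs to D150-ROs it was 8.38 (SE 0.23; edgeR adjusted p = 1.46e-11), from 8 counts to 2895. The 3 P1 libraries held none, at least 642-fold lower than D150-ROs. A single count was seen at P5, a log2 ratio to D150-ROs of −10.85 with a 95% counting interval from −16.16 to −8.38, and no fold is given between the passages.

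APOE ran in the opposite direction in the organoids. It was highest in hiPSCs, at 568, 573 and 511 FPKM, and fell to 89.6, 122 and 71.9 in D70-ROs and to 11.5, 15.2 and 14.2 in D150-ROs. The steps were −2.69 (SE 0.19; edgeR adjusted p = 2.52e-07) and −3.02 (SE 0.22; edgeR adjusted p = 4.29e-06), the later one −2.32 with the length trend removed. In iMGCs APOE was 35.1, 40.9 and 35.6 FPKM at P1 and 34.1, 35.7 and 33.8 FPKM at P5, all above every D150-RO library and below every D70-RO library. It was thus the member called higher at P1 than in D150-ROs, by 2.11 (SE 0.10; edgeR adjusted p = 1.98e-11), or 1.39 on log2(FPKM + 1). The passages overlapped, with a log2 difference of −0.06 (SE 0.07; edgeR adjusted p = 0.532).

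CLU was the most abundant member in both RO stages and at P1. Clusterin transcripts reached 259.6, 234 and 236 FPKM before differentiation, 550.2, 737 and 446 at day 70, and 678, 805 and 698 at day 150. It rose from hiPSCs to D70-ROs by 1.17 (SE 0.19; edgeR adjusted p = 0.000208), a call lost without D70-RO replicate 2 (0.97), and the 2 organoid stages overlapped, at −0.035 (SE 0.20; edgeR adjusted p = 0.878). Against hiPSCs the D150-RO difference was 1.14 (SE 0.08; edgeR adjusted p = 4.77e-08), and it missed the 2-fold limit without hiPSC replicate 3 (0.98) or with the length trend removed (0.88). At P1 CLU had dropped to 59.0, 66.15 and 72.8 FPKM and at P5 to 18.8, 26.1 and 21.3 FPKM, each group apart from the one before. The fold changes were −2.70 at P1 against D150-ROs (SE 0.05; edgeR adjusted p = 2.02e-16) and −1.63 from P1 to P5 (SE 0.07; edgeR adjusted p = 2.1e-15). In FPKM, 9.08% ± 0.948 (SD, n = 3) of the D150-RO level was left at P1 and 3.04% ± 0.509 (SD, n = 3) at P5.

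**Figure D2:**
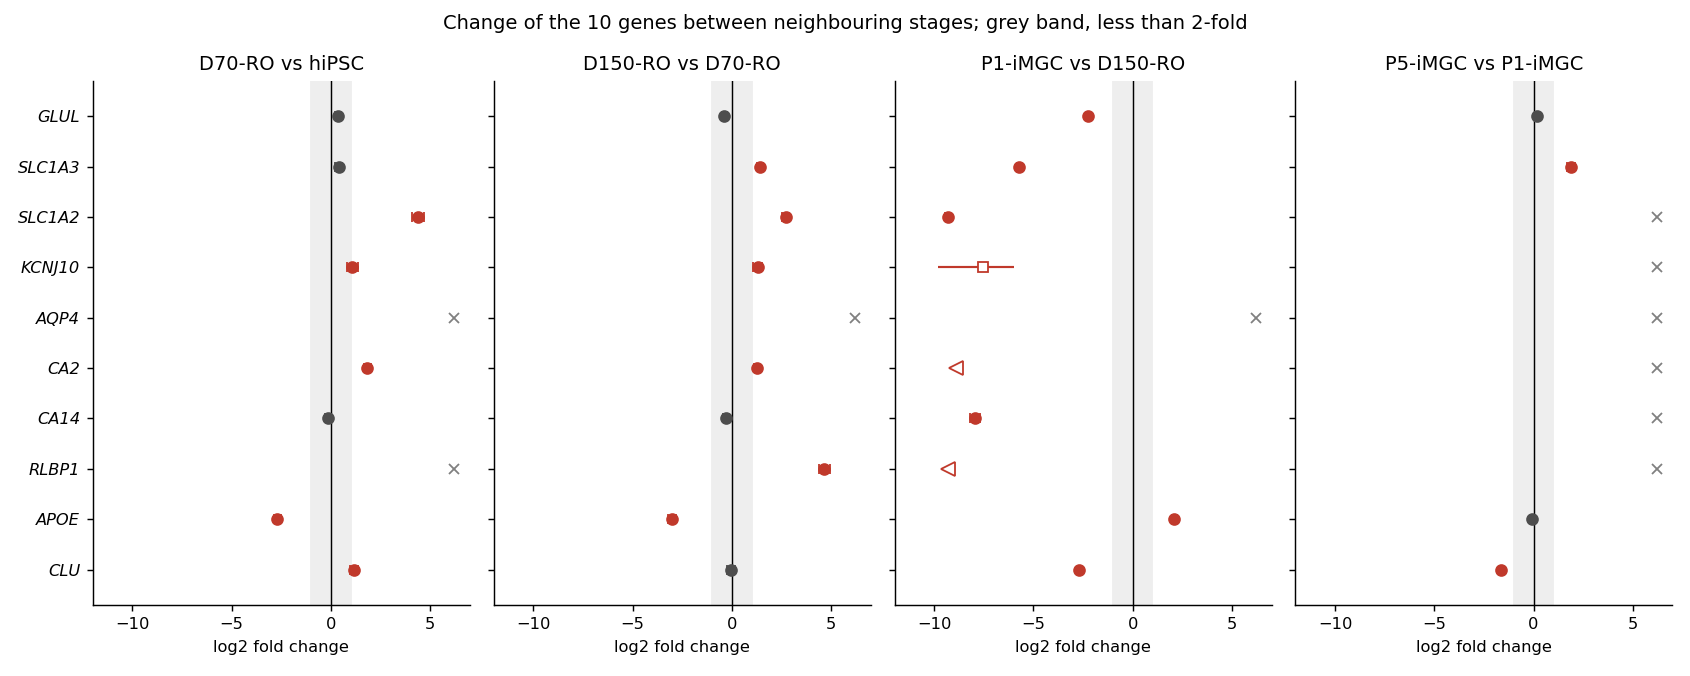
Log2 fold change (horizontal axis) of each gene at 4 successive steps; dots with bars are edgeR estimates ± SE, squares with bars are count ratios with 95% counting intervals, and open triangles are bounds against a group without counts. Red marks called genes, grey dots genes tested and not called, crosses at the right edge genes too low to be tested, and the grey band less than 2-fold. At P1 against D150-ROs 8 genes lie left of the band and APOE lies right of it, while from P1 to P5 SLC1A3 (1.88) and CLU (−1.63) lie outside it.

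Set beside all genes, the counts of called members read as follows. Between hiPSCs and D70-ROs 8 members could be tested: SLC1A2, KCNJ10, CA2 and CLU were called higher and APOE lower, where 43.5% of all genes tested were called, 22.5% higher and 21.1% lower. From D70-ROs to D150-ROs 5 of 9 tested were called higher (SLC1A3, SLC1A2, KCNJ10, CA2 and RLBP1) and APOE lower, beside 33.3% of all genes called, 16.6% higher and 16.7% lower. Over both steps together, D150-ROs against hiPSCs, 6 of 9 were called higher and 1 lower, in a comparison that called 58.8% of all genes, 29.8% higher and 29.0% lower. At P1 against D150-ROs, 8 of 9 tested were called lower and 1 higher, where 24.1% of all genes were called lower, 20.0% higher and 44.1% in all. On log2(FPKM + 1) the balance of the whole comparison moved, from 45.4% of the called genes being higher to 22.9%, and the 9 members kept their calls and directions. At P5 against D150-ROs the counts were again 8 lower and 1 higher of 9, beside 44.6% of all genes called, 20.8% higher and 23.9% lower. Between P1 and P5 2.92% of all genes were called, 1.94% higher and 0.977% lower, and of the 4 members tested there 2 were called, SLC1A3 higher and CLU lower. Libraries of the 2 groups that do not overlap were common among all genes tested as well: 75.5% between hiPSCs and D70-ROs, 77.2% between D70-ROs and D150-ROs, 87.4% between hiPSCs and D150-ROs, 87.9% between D150-ROs and P1, 39.5% between P1 and P5, and 88.5% between D150-ROs and P5.

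These counts describe the members and are not evidence of a shared direction. At P1 against D150-ROs, 6 of the 9 tested reached 1 FPKM only in D150-ROs and so had to be lower to be tested at all, and GLUL, APOE and CLU were the 3 that reached it in both groups. The median log2 fold change of the 9, with genes without or nearly without counts put at their bound or count ratio, was −7.52, beside −0.05 for all genes tested. At P5 against D150-ROs 5 of the 9 (SLC1A2, KCNJ10, CA2, CA14 and RLBP1) likewise passed only through D150-ROs and had to be lower. Between D70-ROs and hiPSCs SLC1A2 and KCNJ10 passed only through D70-ROs and had to be higher, as did SLC1A3 through P5 between the passages. Between D150-ROs and hiPSCs SLC1A2, KCNJ10 and RLBP1 passed only through D150-ROs. The median of the 9 tested in that comparison was 1.79, beside −0.02 over all genes.

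Added up, the 10 genes gave 917.3 ± 39.7 FPKM in hiPSCs and 983.2 ± 70.0 in D150-ROs, but 117.1 ± 6.91 at P1 and 72.67 ± 5.06 at P5 (SD, n = 3 each). The composition of that sum changed more than its size did between hiPSCs and D150-ROs. APOE made up 58.6% to 61.5% of it in the hiPSC libraries and 1.38% ± 0.138 in D150-ROs, and CLU 26.5% ± 1.25 and 73.9% ± 1.69. The 7 members other than GLUL, APOE and CLU contributed 142.0 ± 3.73 FPKM in D150-ROs, but 0.53 ± 0.0656 FPKM at P1 and 1.47 ± 0.0781 FPKM at P5. The mean of SLC1A3 went from 0.373 to 1.19 FPKM over the same passages. As CLU fell, APOE became the largest share at P5, at 47.6% ± 1.89.

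**Figure D3:**
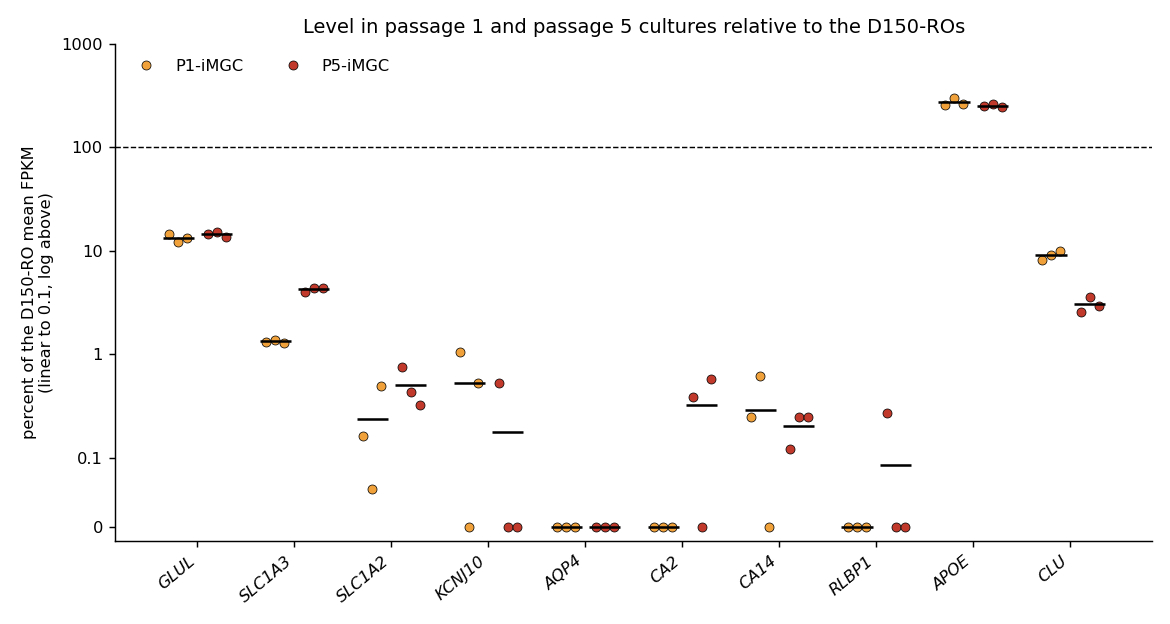
Level of each gene in the 3 P1 libraries (orange) and the 3 P5 libraries (red) as percent of its mean FPKM in D150-ROs (vertical axis, linear up to 0.1 and logarithmic above; dashed line, 100%); black lines are means. SLC1A3 moves from 1.33% to 4.25% and CLU from 9.08% to 3.04%, while GLUL stays at 13.4% and 14.6%.

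Read across the passages, the members fell into 6 courses. A partial recovery is counted where a gene called lower at P1 was called higher at P5 than at P1 while still called lower than in D150-ROs; SLC1A3 alone met this among the 4 members tested between the passages. CLU alone met the definition of further loss, called lower at both steps. GLUL fell and then showed no call, and APOE rose and then showed no call. SLC1A2, KCNJ10, CA2, CA14 and RLBP1 fell to levels that were too low for a test between P1 and P5, and AQP4 stayed below the filter at every step. With no filter on low values SLC1A2 was called higher at P5 than at P1 (28 against 8 counts; edgeR adjusted p = 0.0472), which by the same definition would make it a partial recovery. In KCNJ10, CA2, CA14, RLBP1 and AQP4 a small recovery or a further loss was not detectable at this depth. The 3 comparisons behind these courses share libraries, so their values are given side by side and not as independent evidence.

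Related genes, from 6 lists with 86 genes in all, did not all follow. At P1 against D150-ROs 65 of the 86 were tested, of which 17 were called higher and 27 lower, with a median log2 fold change of −0.04 beside −0.05 over all genes. Of all genes tested in this comparison 20.0% were called higher and 24.1% lower, and the counts of each list at P1 stand beside these shares. Related genes that reached 1 FPKM in only 1 of the groups, such as SLC1A7, RBP3 and SLC4A4, had to be higher in that group. Among 13 tested glutamate handling genes 5 were called higher and 5 lower (median 0.13). SLC1A1, the neuronal and epithelial glutamate transporter EAAC1, rose from 2.51 to 11.6 FPKM, by 2.87 (SE 0.13; edgeR adjusted p = 4.52e-12). The neutral amino acid transporters SLC1A5 and SLC38A2 rose as well, by 2.98 and 3.37. SLC1A7, a glutamate transporter of photoreceptors and bipolar cells, went from 116 FPKM to no count, at least 3060-fold lower, and SLC1A6 was at least 92.5-fold lower. The glutamine transporter SLC38A3 fell by 4.98 on the log2 scale. SLC1A1 was thus called higher at P1 where SLC1A2, SLC1A3, SLC1A6 and SLC1A7 were called lower, and at P5 it had 13.5 FPKM.

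In the potassium and sodium list 10 of 13 genes were tested at P1 against D150-ROs, with 6 called lower and 1 higher (median −1.31). ATP1B2, the β2 subunit of the sodium pump, fell from 205 to 0.313 FPKM, by 8.71 (SE 0.08; edgeR adjusted p = 1.77e-19) on the log2 scale. KCNMA1, the large-conductance calcium-activated potassium channel, rose by 2.10. From P1 to P5 this list held both of the related genes called higher, out of 49 tested over the 6 lists. Of all genes tested between the passages 1.94% were called higher and 0.977% lower. KCNJ16, an inward rectifier that can pair with Kir4.1, went from 0.41 to 0.65 FPKM at P1 to 3.86 to 4.20 FPKM at P5, by 3.23 (SE 0.16; edgeR adjusted p = 3.59e-14), and D150-ROs had at most 0.07 FPKM. Between the passages KCNJ16 reached 1 FPKM only at P5 and so had to be higher there to be tested at all. KCNJ8, an ATP-sensitive inward rectifier, rose from 1.81 ± 0.107 to 4.91 ± 0.577 FPKM (SD, n = 3; edgeR adjusted p = 3.62e-09). KCNJ10 itself held 1 count in the P5 libraries. The related gene called lower from P1 to P5 was SLC38A5, a glutamine transporter, which fell by 3.08 (SE 0.23; edgeR adjusted p = 1.32e-10) to 0.523 FPKM. SLC38A5 reached 1 FPKM only at P1 of the 2 passages and so had to be lower at P5.

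The water channel list gave 3 called lower and 2 higher of 8 tested at P1 (median −0.51). Aquaporins AQP3 and AQP11 fell by 2.03 and 1.81, and DMD, which encodes the dystrophin that anchors AQP4 and Kir4.1 at the endfoot, fell by 1.03. Its relative utrophin (UTRN) rose by 3.38. Carbonic anhydrases and acid-base transporters showed none called lower and 5 called higher of 12 tested (median 0.48). CA12, another membrane-bound carbonic anhydrase, rose from 1.79 to 15.3 FPKM, by 3.69 (SE 0.14; edgeR adjusted p = 5.68e-13), while CA14 was lost. The bicarbonate cotransporter SLC4A4 rose by 3.42 and the lactate carrier SLC16A3 by 4.05.

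Of the visual cycle genes 8 of 10 tested were called lower at P1 and 1, RDH5, higher (median −3.39). RBP3, the retinoid carrier between photoreceptors and their neighbours, went from 72.6 FPKM to no count, at least 3320-fold lower. RGR was at least 185-fold lower, and ABCA4, a retinoid transporter of photoreceptors, fell by 9.12. In lipoprotein handling 3 of 12 tested were called higher and 5 lower (median −0.33). The receptor LRP1, which takes up APOE particles, rose by 3.12, and the transfer protein PLTP by 1.75. ABCG1, which exports cholesterol, and the receptor LRP2, which binds CLU, had no counts at P1, at least 548-fold and 2780-fold lower. At P5 against D150-ROs all 6 lists together gave 19 called higher and 25 lower of 66 tested, beside 20.8% and 23.9% of all genes tested.

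**Figure D4:**
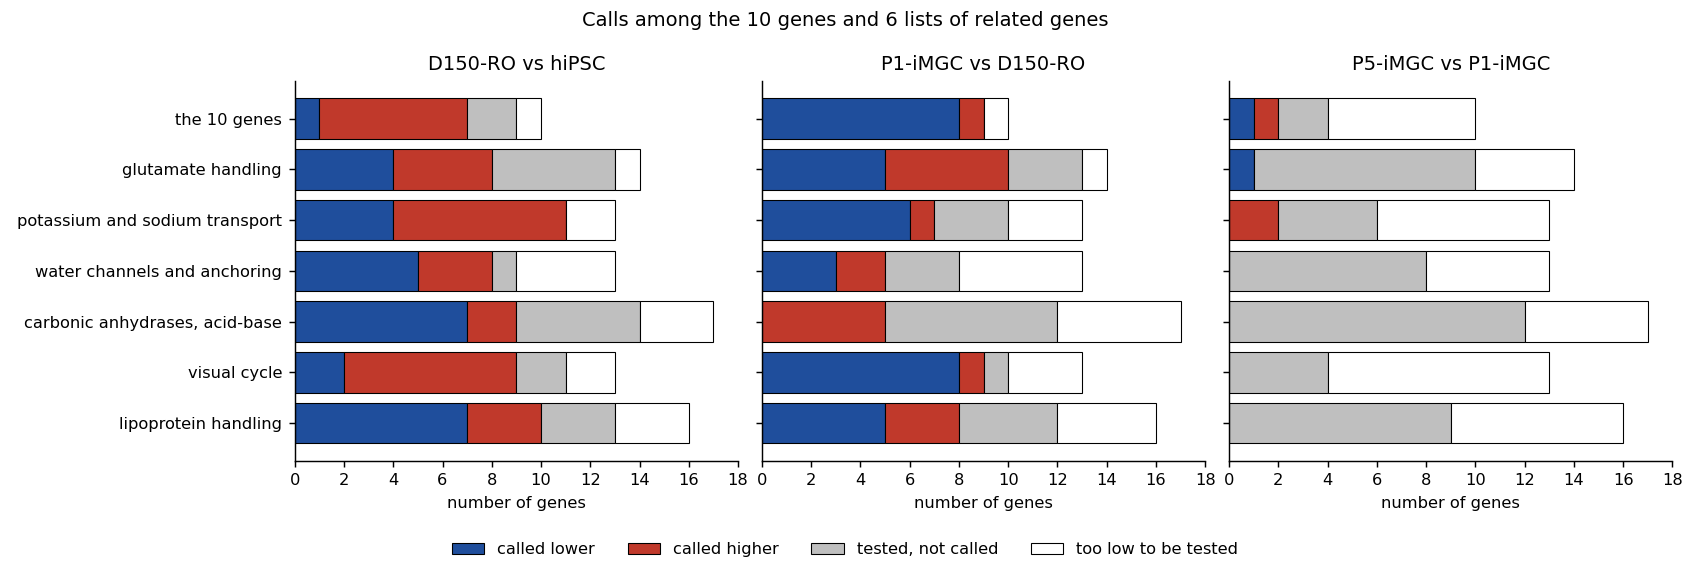
Number of genes (horizontal axis) called lower (blue), called higher (red), tested and not called (grey) or too low to be tested (white) among the 10 genes and in each of 6 lists of related genes, for 3 comparisons. At P1 against D150-ROs the bar of the 10 genes is blue for 8 of 9 tested, the glutamate bar holds 5 of each colour, and the acid-base bar holds no blue.

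In the organoids the same lists gave 26 called higher and 29 lower of 71 tested between hiPSCs and D150-ROs. Of all genes tested there, 29.8% were called higher and 29.0% lower. Genes that rose there with the members included SLC1A7 (8.22) and SLC38A3 (5.15) among glutamate genes, KCNMA1 (3.54), SLC12A2 (3.49) and ATP1B2 (3.26) among ion transporters, and RBP3 (8.63) and ABCA4 (7.92) in the visual cycle. Genes that fell included SLC1A5 (−3.91) and SLC1A1 (−2.18), SLC16A3 (−4.04), and, with APOE, APOC1 (−7.29) and PLTP (−3.02).

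Marker lists of cell types were read to place these changes. Of the 11 other MGC markers 8 were called lower at P1 than in D150-ROs and 2 higher. Of all genes tested there, 24.1% were called lower and 20.0% higher. RAX and SOX2 were among the markers that reached 1 FPKM only in D150-ROs and so had to be lower. RAX had no count in iMGCs, SOX9 kept 5.21 ± 0.252 FPKM (SD, n = 3), and the higher ones were VIM (1060 to 2160 FPKM) and CRYAB (10.9 to 30.2 FPKM). VIM, which encodes vimentin, is also made by fibroblasts. Against their label as MGCs, the iMGCs thus had no count of RAX and few or none of SLC1A2, KCNJ10, AQP4, CA2, CA14 and RLBP1, and held VIM, CRYAB, SOX9, PAX6 (30.7 FPKM) and nestin (NES, 39.6 FPKM) at P1. CA14 is no mark of MGCs alone, as hiPSCs had 35.9 FPKM of it and D150-ROs 32.5. The markers named here were picked after their values were seen. All 11 tested of 12 mesenchymal or fibroblast markers were called higher at P1. Several of these 11 reached 1 FPKM only at P1 and so had to be higher to be tested. The sum of the list went from 39.3 to 43.5 FPKM in D150-ROs to 12500 to 13200 at P1 and 13500 to 14100 at P5. Fibronectin (FN1) alone had 8340 ± 191 FPKM (SD, n = 3) at P1. Photoreceptor markers summed to 1380 to 1490 FPKM in D150-ROs and to 0.43 to 0.60 at P1, with CRX, RCVRN, ARR3, GNAT1 and PDE6H among those at 0, and inner retinal neuron markers went from 64.5 to 91.2 to 0.85 to 1.06. Astrocyte markers stayed at or under 1.99 FPKM in sum in iMGCs and microglial markers at or under 0.94. Pigment epithelium markers summed to 37.3 to 43.3 FPKM in D150-ROs and to 5.05 to 5.61 at P1. The part of neurons, photoreceptors and mesenchymal cells in the values of the 10 genes was not tested.

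**Figure D5:**
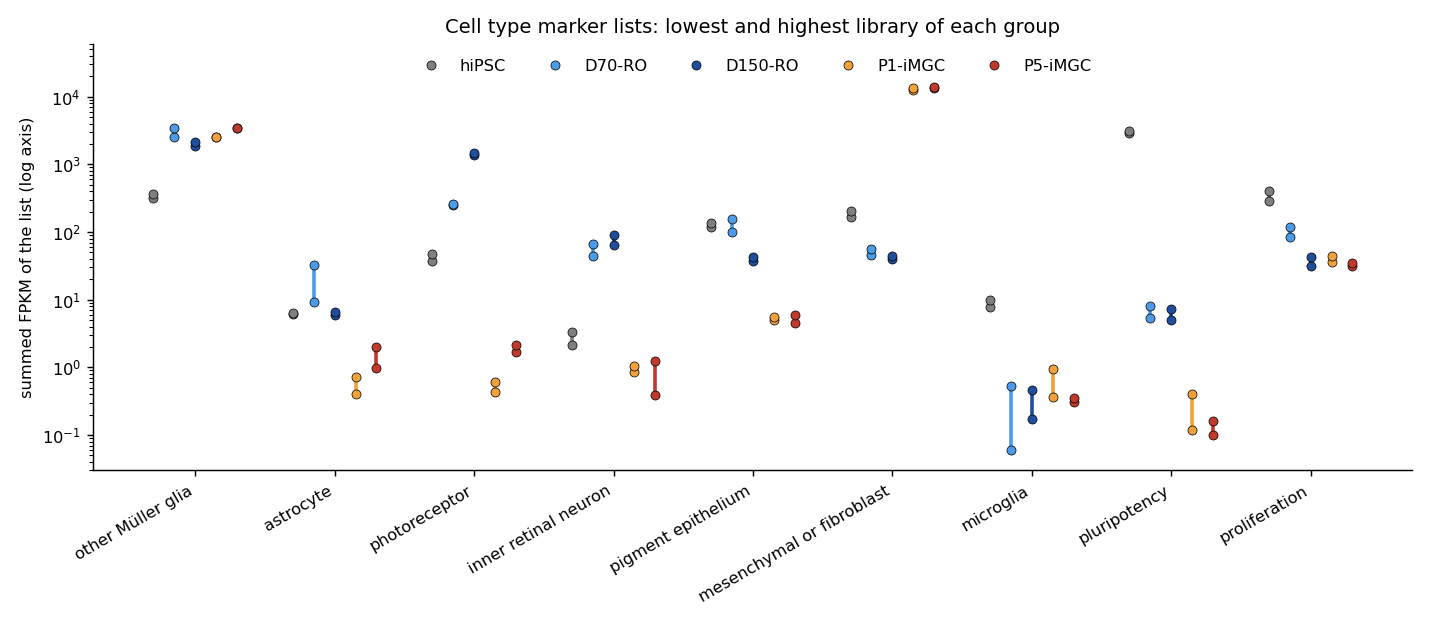
Summed FPKM of 9 marker lists (vertical axis, logarithmic) in the 5 groups; the points joined by a bar are the lowest and the highest of 3 libraries. The mesenchymal or fibroblast list stands at 12500 or more in iMGCs and at most at 203 elsewhere, while the photoreceptor list falls from at least 1380 in D150-ROs to at most 2.14 in iMGCs.

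Genes with the most similar pattern were sought for each member by Pearson correlation of log2(FPKM + 1) over the 15 libraries, among 13915 genes. The values describe 5 groups of 3 libraries rather than 15 independent points, and many genes share such patterns. SLC1A2 ran close to the potassium channel KCNA2 (r = 0.998) and to SLC1A7 (r = 0.998). RLBP1 was closest to the photoreceptor genes PCARE (r = 0.999) and GNGT1 (r = 0.997). KCNJ10 followed RPS6KL1 (r = 0.997), ABCG1 (r = 0.996) and ZNF875 (r = 0.995), and CA2 followed SH3GL2 (r = 0.998), SLC35F1 (r = 0.997) and UNC119 (r = 0.996). CA14 was nearest to CACNA2D2 (r = 0.998), SSBP3 (r = 0.998) and PRR36 (r = 0.997). SLC1A3 came with HPS4 (r = 0.994), PROM1 (r = 0.991) and SEMA4B (r = 0.990), and GLUL with NELL2 (r = 0.996), NRXN2 (r = 0.995) and ZFP36L2 (r = 0.995). APOE was followed by UNC45A (r = 0.994), SLC39A1 (r = 0.993) and AGTRAP (r = 0.993), and CLU by HID1 (r = 0.992), GLB1L2 (r = 0.988) and TSPAN7 (r = 0.981).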

How the data were processed

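Poly(A) RNA-seq of 15 libraries was analysed, in 5 groups of 3. Per the submitters' notes, HISAT2, StringTie and RSEM mapped, assembled and quantified the paired-end reads; versions, genome build and annotation are not given in the sources used here. The deposited values are RSEM expected counts per gene, not normalized, and FPKM, computed by the authors. Values of 2 tables of 19684 genes were analysed; a further table was used to check that its D150-RO FPKM are identical. Its 6 iMGC columns without a stated passage were not used. Fold changes and p-values of the authors' own comparisons were not used.

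Expected counts were rounded and tested in R 4.3.3 with edgeR 4.0.16 (TMM, glmQLFit and glmQLFTest), groups 2 at a time, in 6 comparisons without covariates, over genes with at least 1 FPKM in at least 3 of the libraries compared. A call required 2-fold change together with p under 0.05 after Benjamini-Hochberg adjustment. Alternatives used limma 3.58.1 with pseudocounts of 1 and 0.1, DESeq2 1.42.0, upper-quartile scaling, no filter, all 15 libraries in 1 fit, a replicate block, a test against a 2-fold change and each library left out. Removal of a trend with gene length, and leaving libraries out with the set of tested genes kept, were chosen after seeing the data. A group without counts was given an upper limit of 3 counts over its libraries, and 1 to 3 counts a 95% interval; both cover counting error only. The tests were checked on simulated data.

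The 10 genes, the related lists and the marker lists were chosen with earlier results of these data known. Text names all 10, up to 3 genes called higher and 3 called lower per list and comparison, and the 3 genes most like each member. P-values measure the spread between the 3 libraries of a group, which may be partly technical. Libraries that carry the same replicate number were not taken as pairs, since their deviations from the group means correlated between −0.074 and 0.337. Promoter windows were taken from RefSeq (GRCh38.p14). Some genes that the naming rule or the marker lists hold are not reported here by name.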

Additional observations from a re-analysis of the deposited data

How the results depend on the processing

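Across all settings each member kept its direction from D150-ROs to P1 and to P5 wherever it was tested. When a library is left out, genes that reach 1 FPKM only in its group miss the filter of 3 libraries. Leaving out 1 library at a time, members called ranged from 3 to 9 at P1 and from 4 to 9 at P5 against D150-ROs, from 4 to 7 in D150-ROs against hiPSCs, from 2 to 5 in D70-ROs against hiPSCs, from 1 to 2 between P5 and P1, and stayed at 6 in D150-ROs against D70-ROs. With the tested genes kept the counts were 9, 9, 7, 3 to 5, 2 and 6, the 3 coming without D70-RO replicate 2. The test against a 2-fold change called 3 members in D70-ROs against hiPSCs, and limma on log2(FPKM + 1) called 1 between P5 and P1. Signs turned only in uncalled differences. CLU in D150-ROs against D70-ROs was 0.36 under limma with either pseudocount and 0.011 with the replicate block, and ranged from −0.236 to 0.236 with 1 library left out (0.254 with the tested genes kept). GLUL in D150-ROs against hiPSCs was 0.37 and 0.38 under limma and ranged from −0.155 to 0.195 with 1 library left out (with the tested genes kept, 0.017 without hiPSC replicate 2 and 0.013 without D150-RO replicate 3). CA14 in D70-ROs against hiPSCs ranged from −0.254 to 0.026 with 1 library left out, the latter without D70-RO replicate 3, and from −0.349 to −0.062 with the tested genes kept. APOE from P1 to P5 ranged from −0.112 to 0.014 (0.016 with the tested genes kept), both latter values without P1-iMGC replicate 2. The cause of these turns was not tested. The replicate block changed no call of a member and left 5, 6, 7, 9, 2 and 9 members called in the 6 comparisons. Over all genes the calls between P5 and P1 numbered 332 in the main setting, 694 with no filter, 161 in the test against a 2-fold change and 152 under limma on log2(FPKM + 1); the calls in D150-ROs against D70-ROs numbered 4276 and, against a 2-fold change, 2830. On log2(FPKM + 1) 63.3% of those called in D150-ROs against D70-ROs were higher, against 49.8%, and 22.4% at P5 against D150-ROs, against 46.5%. Upper-quartile scaling moved the median of all genes to −0.16 at P1 and P5 against D150-ROs. Depth limits AQP4 everywhere and SLC1A2, KCNJ10, CA2, CA14 and RLBP1 in iMGCs, where at most 28 counts per group were seen.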
